A study of Arabidopsis thaliana with 24 samples.

Results

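The 36 genes described here encode the protein-folding machinery of the endoplasmic reticulum (ER) of Arabidopsis thaliana, the parts that remove misfolded proteins from it, and the sensors and transcription factors that adjust both. They were chosen by gene identifier from lists of BIP, calnexin, calreticulin, ERDJ and protein disulfide isomerase genes, ER-associated degradation (ERAD) parts and regulators of the unfolded protein response, and they are 36 of the 33469 genes in the deposited tables. The choice was made with earlier results of these data known. Further genes of the same families, such as PDIL1-3, PDIL1-6, DER2.2 and HRD3B, are not in the list and are counted apart. All 36 identifiers were found. By role they fall into 3 Hsp70 chaperones, 5 cochaperones and ER Hsp90, 5 lectin chaperones, 8 enzymes of disulfide formation, 5 ERAD parts, 6 sensors and transcription factors and 4 other targets of the response.

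Secreted and membrane proteins enter the ER unfolded. BIP, an Hsp70, holds them with the help of J-domain cochaperones, calnexin and calreticulin retain those that carry N-glycans, and protein disulfide isomerases, re-oxidised by ERO1, form their disulfide bonds. Proteins that fail are passed back to the cytosol through complexes of HRD1 and derlins and degraded. When unfolded proteins build up, plants use the kinase and endoribonuclease IRE1, which splices the mRNA of bZIP60, and the membrane-bound factors bZIP28 and bZIP17, which are cleaved in the Golgi, to raise transcription of the chaperone genes. In roots this response is known from treatment with tunicamycin or dithiothreitol, from heat and from salt.

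Seedlings of the wild types Col-0 (Columbia) and WS (Wassilewskija) flew on a Virgin Galactic vehicle (VG) at 10 days of age. WS and the mutant sku5, carried in WS and known for roots that skew along the agar, flew on a Blue Origin vehicle (BO) at 11 days. Both flights gave about 3 minutes of microgravity; the highest load was 4.5 g going up and 3.5 g coming down on the VG vehicle, whereas the BO vehicle reached 3 g and 5.7 g. Poly(A) RNA of whole roots was sequenced in 24 libraries, 3 for each of 8 groups (flight and ground for Col-0 and WS at VG, and for WS and sku5 at BO). All seedlings grew on vertical plates with sucrose and were fixed in RNAlater. Plates that flew were covered with an opaque cloth, which the labels do not say of ground plates. Before flight the VG plates stood in ambient conditions under LED light and the BO plates in a cultivator at 26 °C, where the BO ground plates stayed. BO seedlings that flew were fixed 33 minutes after touchdown, and their ground plates 1 h later than the flown ones. Flown and ground roots at BO thus differ in flight, in where plates were kept, in the time of fixation and possibly in cover. These cannot be told apart, and words such as fell and rose only compare flown with ground roots. Replicates of a group are roots from 1 fixation tube, so p-values measure the spread between those samples only. The Col-0 libraries are in a separately normalized table, and levels are not tested across the tables.

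Values are FPKM (fragments scaled to transcript length and library size), and read totals are not given, so the depth of each library is unknown. Summed FPKM over all genes ran from 1021562 to 1290752. Mean correlations of each library with the others of its group, on the log2(FPKM + 1) scale, lay between 0.935 and 0.975. Changes are log2 changes of FPKM + 1 with their standard error (SE) from limma, which understate the change of low genes, and a gene was called where its p, adjusted over all genes tested (Benjamini-Hochberg), was under 0.05. The SKU5 transcript itself was at 3.17 to 9.85 FPKM in the 6 sku5 libraries and 51.1 to 94.2 in the 6 WS libraries at BO. Markers of every root tissue looked for were present in all 8 groups. Shoot photosynthesis genes were present too: the summed level of 9 of them was 102 to 311 FPKM in the Col-0 libraries, 102 to 270.0 in WS libraries at VG and 331 to 725 in BO libraries.

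A promoter was read as the 250 bases before the annotated gene start in the RefSeq TAIR10.1 genome of Columbia, for all 36 genes and for 27443 protein-coding genes in all. Both strands were searched for the ER stress response element ERSE-I (CCAAT, any 10 bases, CACG), ERSE-II (ATTGG, any 1 base, CCACG), UPRE-I (TGACGTGG or TGACGTGA), UPRE-III (TCATCG) and the G-box (CACGTG), which can overlap the CACG end of an ERSE. ERSE-I was found before 8 of the 36 genes (22.2%) and before 0.689% of all promoters. UPRE-I was found before 4 (11.1%, against 1.82%), the G-box before 10 (27.8%, against 6.49%), UPRE-III before 5 (13.9%, against 6.45%) and ERSE-II before 0 (against 0.0619%). The 8 genes with ERSE-I are BIP3, SHD, P58IPK, CRT1a, PDIL1-1, PDIL1-2, HRD1B and HRD3A. BIP3 and P58IPK hold 2 copies each, and in SHD, PDIL1-2, HRD1B and 1 of the copies in each of BIP3 and P58IPK the CACG is shared with a G-box.

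TIN1 and PDIL1-2 were lower after the Blue Origin flight, CRT1a and P58IPK differed between the WS flight effects, and BIP3 was near 0 throughout. The promoters of these 5 genes are printed because each holds ERSE-I, UPRE-I or both and the genes differ in level. Each is 5′ to 3′ on the strand of its gene and ends at the base before the gene start; capitals mark ERSE-I and UPRE-I matches of either strand. They lie at chr5:25784154-25784403, plus strand (TIN1), chr1:29126398-29126647, plus strand (PDIL1-2), chr1:21092710-21092959, minus strand (CRT1a), chr5:749851-750100, plus strand (P58IPK) and chr1:2931851-2932100, minus strand (BIP3). The first bases printed for TIN1 belong to a tRNA gene.
TIN1: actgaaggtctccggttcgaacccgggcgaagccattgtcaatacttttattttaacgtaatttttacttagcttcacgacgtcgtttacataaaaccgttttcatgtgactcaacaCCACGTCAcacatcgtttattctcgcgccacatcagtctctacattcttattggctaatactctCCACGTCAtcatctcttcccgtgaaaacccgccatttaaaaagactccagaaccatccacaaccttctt
PDIL1-2: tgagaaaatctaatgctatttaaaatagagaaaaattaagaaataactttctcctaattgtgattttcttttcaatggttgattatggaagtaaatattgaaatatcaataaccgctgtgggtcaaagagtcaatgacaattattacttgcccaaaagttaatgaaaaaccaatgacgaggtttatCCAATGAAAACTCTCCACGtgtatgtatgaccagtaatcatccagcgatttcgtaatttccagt
CRT1a: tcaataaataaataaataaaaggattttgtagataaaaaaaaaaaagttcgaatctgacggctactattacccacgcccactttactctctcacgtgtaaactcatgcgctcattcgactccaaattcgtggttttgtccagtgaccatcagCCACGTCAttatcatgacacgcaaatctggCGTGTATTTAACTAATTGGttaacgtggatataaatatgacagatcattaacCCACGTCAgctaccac
P58IPK: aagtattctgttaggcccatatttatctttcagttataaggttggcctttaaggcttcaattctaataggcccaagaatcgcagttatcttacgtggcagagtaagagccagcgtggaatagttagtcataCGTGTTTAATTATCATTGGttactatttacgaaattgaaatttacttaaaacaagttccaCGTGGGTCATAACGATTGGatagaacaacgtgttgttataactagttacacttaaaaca
BIP3: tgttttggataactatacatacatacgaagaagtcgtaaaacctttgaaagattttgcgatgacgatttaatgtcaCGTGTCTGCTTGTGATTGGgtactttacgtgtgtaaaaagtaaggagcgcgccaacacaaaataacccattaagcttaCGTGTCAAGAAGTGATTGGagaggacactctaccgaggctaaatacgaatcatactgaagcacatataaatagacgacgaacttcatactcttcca
CRT1a holds ERSE-I once and UPRE-I in 2 copies within 98 bases of its start. TIN1 holds UPRE-I in 2 copies and no ERSE-I. A match is a description of the letters, and no match says only that they are not in this window.

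The levels of the genes were far apart. In WS ground roots at BO the highest levels were those of CRT1a (calreticulin, 262 ± 55.2 FPKM, mean ± SD, n = 3), BIP2 (224 ± 62), SHD (the ER Hsp90, 217 ± 37.2), BIP1 (215 ± 46), CNX1 (calnexin, 213 ± 49.4), BAG7 (an ER cochaperone of the BAG family, 202 ± 21.1) and PDIL2-1 (a protein disulfide isomerase, 186 ± 29.4). The first 5 of these lay within a range smaller than the largest of their SDs. At the low end stood BIP3 (AT1G09080), the BIP gene known as strongly stress-induced, with at most 0.45 FPKM in any of the 24 libraries; it was too low to test in any comparison. ERDJ3A, NAC103, SARA1A and TIN1 were under the filter in Col-0 as well, so 31 of the 36 genes were tested in Col-0 and 35 in WS and sku5. TIN1 (AT5G64510), named for its induction by tunicamycin, was at most 1.36 FPKM in every VG library, and 14.9, 9.21 and 12.4 FPKM in the 3 WS ground libraries at BO.

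**Figure D1:**
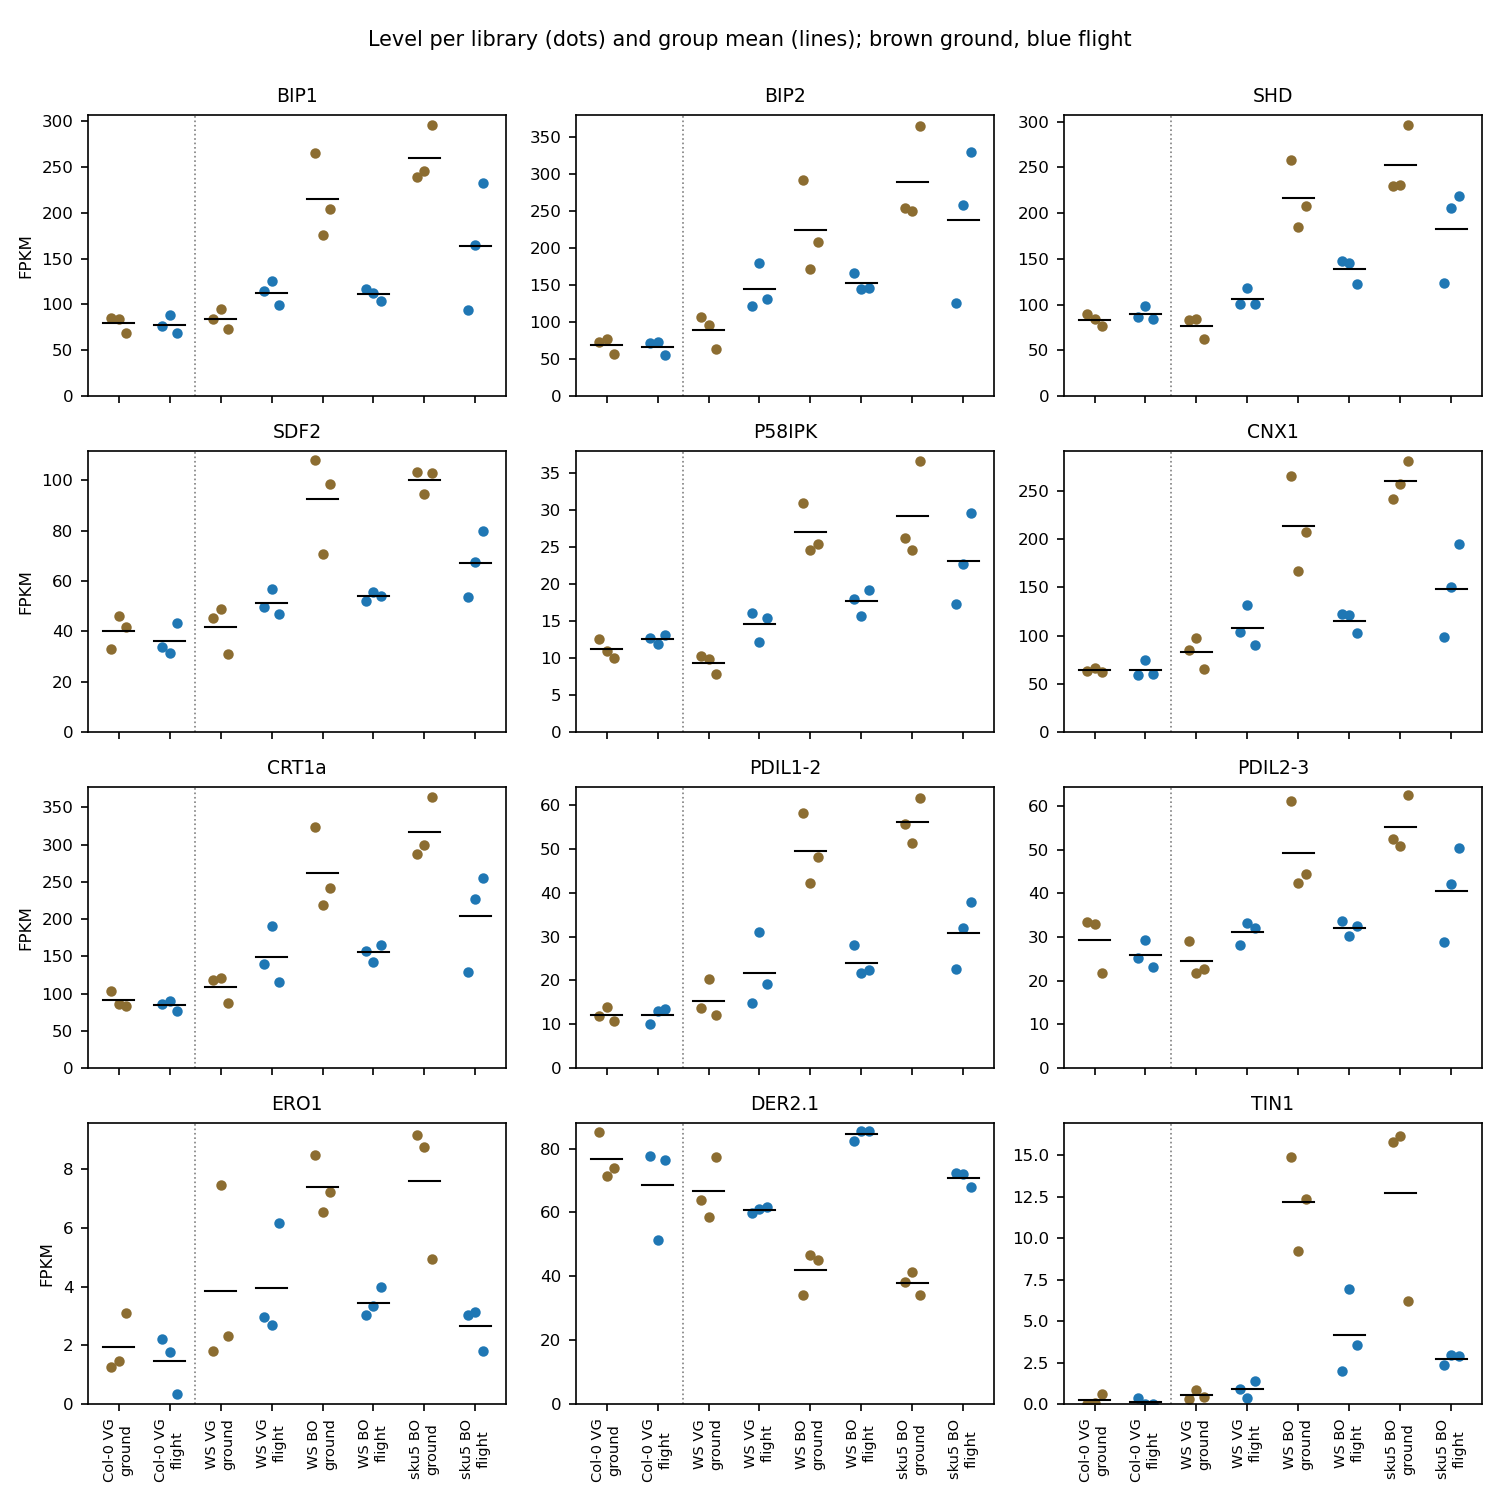
FPKM (y axis, from 0, a separate scale for each gene) of 12 of the 36 genes in all 24 libraries; dots are libraries, black lines group means, brown ground and blue flight, and the dotted line separates the Col-0 table from the WS and sku5 table. DER2.1 had its lowest group means in the 2 Blue Origin ground groups and the other plotted genes had their highest there, except BIP2, whose mean in sku5 flight roots (238) was above that of WS ground roots (224) at Blue Origin.

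After the Blue Origin flight, WS roots held less mRNA of 7 of the 35 genes tested and more of 1, with 27 not called. That is 20.0% lower and 2.86% higher, beside 6.15% lower and 5.51% higher over all 20127 genes tested (1237 and 1108 genes). The list was chosen with earlier results of these data known, so this contrast depends on the choice. Of 55 other genes of the ER pathway tested, 1.82% were lower and 7.27% higher. With libraries rescaled by a trimmed-mean factor the background turned to 941 lower and 1463 higher, and the listed genes to 5 lower and 1 higher. The median log2 change of the 35 genes was -0.41, against -0.08 over all genes, and 74.3% of them lay below 0, against 57.9% of all. All flight libraries lay below all ground libraries in 16 of the 35 genes and above them in 3, beside 21.9% below and 15.5% above over all genes tested. In whole roots, fewer cells of a type and less RNA per cell cannot be told apart.

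Of the Hsp70 chaperones BIP1 (AT5G28540) fell. Its ground libraries held 266, 176 and 204 FPKM and its flight libraries 117, 113 and 104, so every flight library was below every ground library (log2 change -0.93, SE 0.24, limma adjusted p = 0.0186). BIP2 (AT5G42020) stood at 292, 171 and 209 on the ground and 167, 145 and 146 after flight; its groups did not overlap either, but its change of -0.52 (SE 0.30) was not called (adjusted p = 0.287). The coding sequences of BIP1 and BIP2 are 97% identical, and 22.9% of the 50-base words of BIP1 transcripts occur in BIP2, so the split of reads between these 2 genes is less certain than their sum.

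Of the cochaperones and ER Hsp90, 2 of 5 fell. SDF2 (AT2G25110), which works in a complex with ERDJ3B and BIP, was at 108, 70.6 and 98.6 FPKM on the ground and 52.1, 55.5 and 54.2 after flight (-0.74, SE 0.18, limma adjusted p = 0.0147). SHD (AT4G24190) was at 258, 185 and 208 on the ground and 148, 145 and 122 after flight (-0.63, SE 0.20, adjusted p = 0.0471). The flight libraries of both genes lay below all ground libraries. The J-domain proteins ERDJ3B (-0.58, SE 0.20), P58IPK (-0.58, SE 0.20) and ERDJ3A (-0.47, SE 0.32) were not called.

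CNX1 (AT5G61790), the main calnexin, was the lectin chaperone that fell, from 265, 167 and 208 FPKM on the ground to 122, 122 and 102 after flight (-0.86, SE 0.23, limma adjusted p = 0.0207). CRT1a (-0.73, SE 0.23, adjusted p = 0.0522) lay just outside the threshold, with 324, 219 and 242 FPKM on the ground and 157, 142 and 166 after flight. CRT3, the plant-specific calreticulin known for the folding of receptor kinases, had a value near 0 (-0.01, SE 0.18).

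Among the enzymes of disulfide formation PDIL1-2 (AT1G77510), a protein disulfide isomerase, was at 58.3, 42.1 and 48.2 FPKM on the ground and 28.00, 21.8 and 22.3 after flight (-1.01, SE 0.25, limma adjusted p = 0.0138). PDIL2-3 (AT2G32920), of another branch of the family, was at 61.2, 42.4 and 44.5 on the ground and 33.6, 30.2 and 32.5 after flight (-0.59, SE 0.19), at the threshold itself (adjusted p = 0.05 when rounded). Neither gene's groups overlapped. PDIL1-1, whose coding sequence is 83.5% identical to that of PDIL1-2, was at 182, 129.7 and 132 FPKM on the ground and 132, 132 and 126 after flight, with overlapping groups (-0.17, SE 0.21), and PDIL1-4 had 0.09 (SE 0.13).

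TIN1, which stood at 14.9, 9.21 and 12.4 FPKM in the ground roots, was at 2.01, 6.92 and 3.58 after flight, all below the ground libraries (-1.44, SE 0.36, limma adjusted p = 0.0167). It had the most negative change of the 35 genes. BAG7 (-0.16), UTR1, a nucleotide sugar transporter (-0.41), and SARA1A, a SAR1-type GTPase (-0.47), were not called.

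DER2.1 (AT4G21810), a derlin of the ERAD machinery, moved the other way. It was at 34.2, 46.7 and 45.2 FPKM in WS ground roots and at 82.5, 85.4 and 85.6 in flight roots (1.00, SE 0.13, limma adjusted p = 0.000274). All flight libraries lay above all ground libraries, and the mean was 2.01 times as high. The authors' deposited table of changed genes for WS at BO lists DER2.1 with a log2 fold change of 1.08 and holds none of the other 35 genes. The entries of that table start at an absolute log2 fold change of 1, and the p of the authors' test is at most 0.01 in them. TIN1 (-1.44) and PDIL1-2 (-1.01) had changes beyond that size in the limma fit and are not among the entries. Of the other ERAD parts HRD1A (0.09), HRD1B (0.02), HRD3A (0.32) and DER1 (0.09) were not called.

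The lower calls in WS rest on few libraries and, for SHD and PDIL2-3, on the processing. SHD lost its call in 10 of 14 other fits and PDIL2-3 in 11, in both cases with a pseudocount of 0.1, without the filter, with the trimmed-mean factor, without the trend and with the replicate block. Ground replicate 1 had the highest level of all 7 genes that fell. Without it only DER2.1 was called (0.87, limma adjusted p = 0.00249), and the 7 changes lay between -1.29 (TIN1) and -0.43 (PDIL2-3), with adjusted p from 0.0797 to 0.253. Without flight replicate 3, SDF2 and DER2.1 were called; without ground replicate 3 or flight replicate 1, 3 and 4 genes were. Each of the 7 genes kept its negative sign in every one of these fits.

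**Figure D2:**
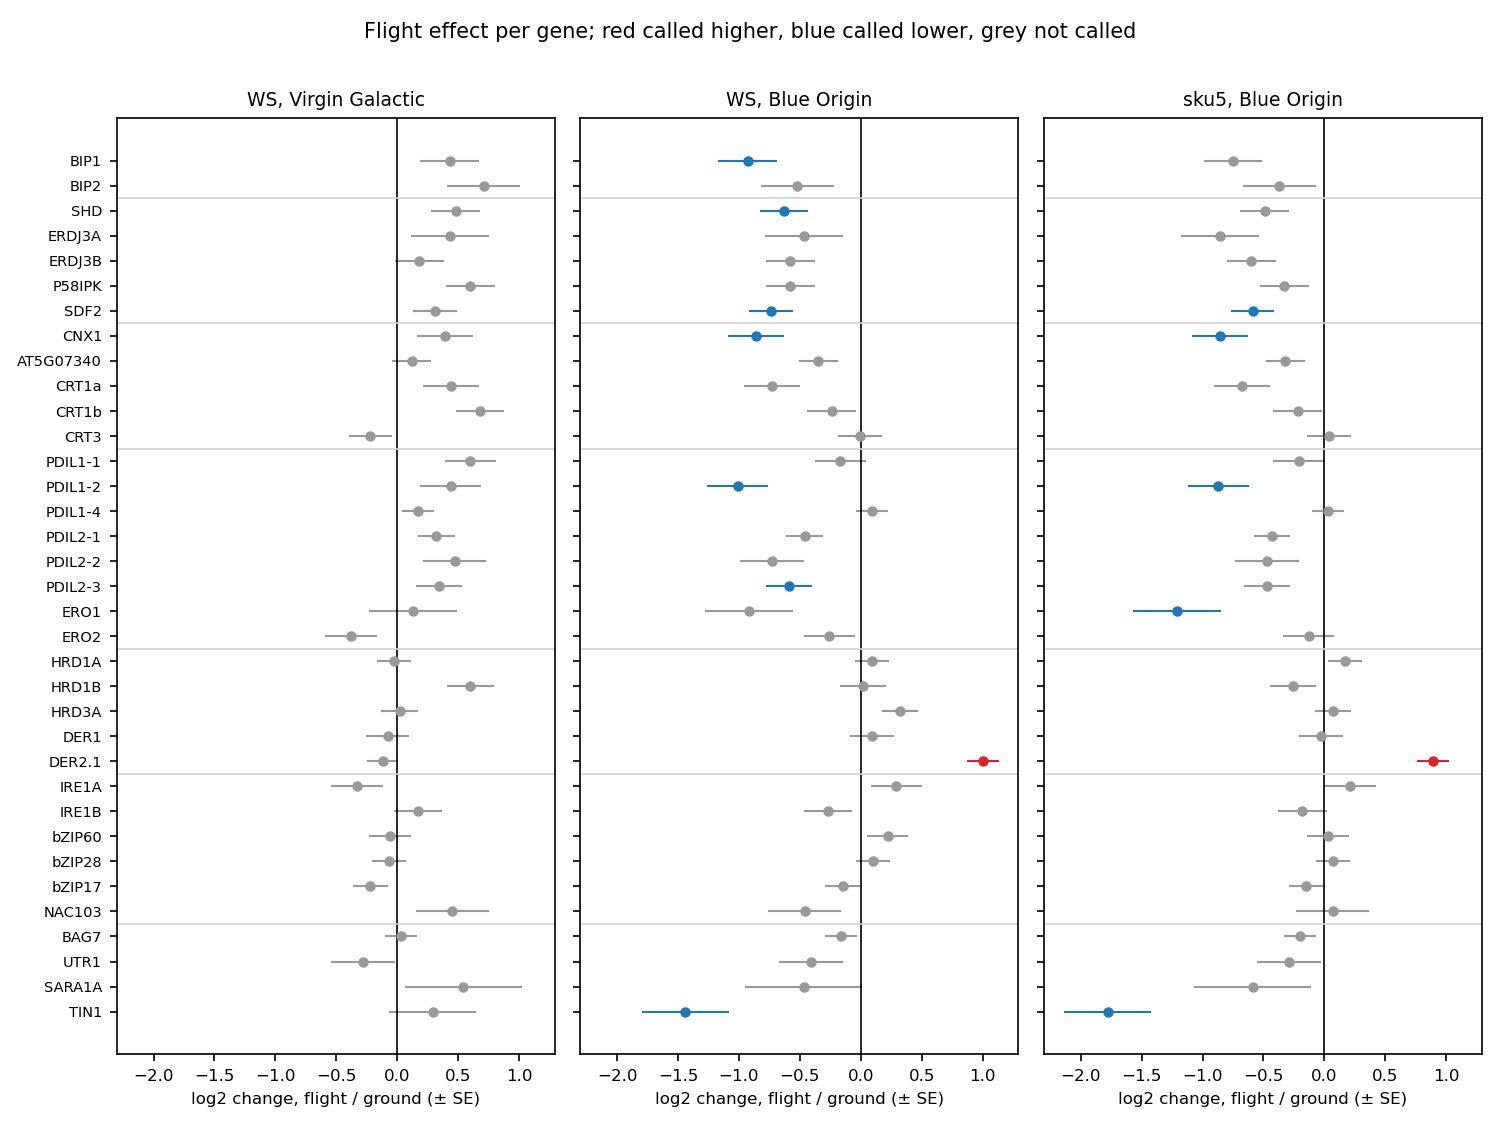
Log2 change after flight against ground (x axis, points, bars are ± SE from limma) for the 35 genes tested (rows, grouped by role) in WS at VG, WS at BO and sku5 at BO; red points were called higher, blue lower and grey not called. After the Blue Origin flight 7 genes were called lower in WS and 5 in sku5, DER2.1 was called higher in both, and no gene was called in WS at VG.

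In sku5 roots after the Blue Origin flight 5 genes were lower, 1 was higher and 29 were not called. These are 14.3% and 2.86%, beside 5.25% lower and 5.05% higher over all genes tested. With the trimmed-mean factor 2 were lower and 1 higher, and the background was 736 lower and 1469 higher where it had been 1056 and 1016. The median log2 change was -0.29, against -0.09 over all genes. All flight libraries lay below all ground libraries in 13 genes and above them in 1, beside 15.8% below and 10.3% above over all genes. The genes called lower were SDF2, CNX1, PDIL1-2, ERO1 and TIN1, and 4 of them were also called lower in WS. The share of all genes called lower in both lines was not counted. These 2 comparisons share no library, but they share the vehicle and, in 1 fit, the estimate of the spread. Fitted on the compared libraries alone, sku5 had 2 genes lower, without SDF2, CNX1 and ERO1.

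TIN1 was at 15.8, 16.1 and 6.20 FPKM in sku5 ground roots and at 2.35, 2.94 and 2.89 after flight (-1.78, SE 0.36, limma adjusted p = 0.00520). The groups did not overlap, although ground replicate 3 was far below the other ground libraries. The authors' deposited table for sku5 lists TIN1 with a log2 fold change of -2.14 and no other of the 36 genes. CNX1 was at 242, 257 and 281 on the ground and 98.1, 151 and 195 after flight (-0.86, SE 0.23, adjusted p = 0.0223). PDIL1-2 was at 55.8, 51.3 and 61.7 on the ground and 22.6, 31.99 and 37.96 after flight (-0.87, SE 0.25, adjusted p = 0.0312). In both genes flight replicate 1 was the lowest library and flight replicate 3 the nearest to the ground libraries.

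SDF2 was at 103, 94.6 and 103 FPKM on the ground and 53.8, 67.5 and 79.8 after flight in sku5 (-0.59, SE 0.18, limma adjusted p = 0.0486). ERO1 (AT1G72280), the oxidase that recharges protein disulfide isomerases, was at 9.15, 8.75 and 4.93 on the ground and 3.05, 3.14 and 1.80 after flight (-1.21, SE 0.36, adjusted p = 0.0397), also without overlap. DER2.1 was at 38.2, 41.3 and 34.1 on the ground and 72.4, 71.9 and 68.1 after flight (0.89, SE 0.13, adjusted p = 0.000641). BIP1, at 239, 246 and 296 on the ground and 93.8, 165 and 233 after flight, missed the threshold (-0.75, SE 0.24, adjusted p = 0.0537), and BIP2, at 254, 251 and 365 on the ground and 126, 258 and 330.1 after flight, had overlapping groups (-0.37, SE 0.30).

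SDF2 and ERO1 each lost their call in sku5 in 10 of 14 other fits, both of them without the filter, with the trimmed-mean factor and in the fit of the compared libraries alone, and ERO1 also with the replicate block, which called ERDJ3A instead. Flight replicate 1 of sku5 stood apart: its summed level of the 21 folding genes (chaperones, cochaperones, lectins and disulfide enzymes) was 1294 FPKM, against 2064 and 2382 in the other flight libraries and 2409.8 to 2962.5 in the ground libraries. Without it, or without ground replicate 1 or 2, TIN1 and DER2.1 were the genes still called, and without flight replicate 2 CNX1 was called beside them. Without flight replicate 1 TIN1 had a change of -1.70 and CNX1 of -0.60 (limma adjusted p = 0.0266 and 0.115). Without flight replicate 3, by contrast, 9 genes were lower, among them BIP1, ERDJ3B, CRT1a, PDIL2-1 and PDIL2-3.

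The flight effects of sku5 and WS at BO were compared directly, as the difference of their log2 changes. No gene of the list was called in either direction by limma, none had an unadjusted p under 0.05, and the background was 0% and 0%. The 3 genes called lower in WS alone (BIP1, SHD and PDIL2-3) had differences of 0.18 (SE 0.34), 0.14 (SE 0.28) and 0.12 (SE 0.26), and ERO1, called in sku5 alone, had -0.30 (SE 0.51). The differences of the listed genes ran from -0.39 to 0.53, with SEs of up to 0.69, so a difference of modest size between the lines could have gone undetected. On the ground, sku5 against WS gave 0 genes higher and 0 lower (background 0% and 0.0149%), with 1 at an unadjusted p under 0.05, BAG7 (0.29, SE 0.13). The median was 0.14, and 82.9% of the 35 genes lay above 0, against 47.3% of all genes.

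After the Virgin Galactic flight no gene of the list was called. In WS 0 were higher and 0 lower of 35 in the limma test, beside 0.00994% higher and 0.0199% lower over all genes, and 7 had an unadjusted p under 0.05. The values lay mostly above 0: the median was 0.29, against -0.02 over all genes, and 71.4% of the list was above 0, against 46.5% of all genes. BIP2 was at 107, 96.2 and 64.04 FPKM on the ground and 122, 180.5 and 132 after flight (0.71, SE 0.30, adjusted p = 0.491). CRT1b (AT1G09210), a calreticulin, was at 88.2, 75.2 and 70.2 on the ground and 116, 143 and 117 after flight (0.68, SE 0.20, adjusted p = 0.35). P58IPK (AT5G03160), a J-domain cochaperone of BIP, was at 10.2, 9.86 and 7.84 on the ground and 16.2, 12.2 and 15.5 after flight (0.60, SE 0.20, adjusted p = 0.395). These 3 were among 9 genes of the list in which every flight library lay above every ground library, and 1 gene had the reverse, beside 7.52% above and 7.16% below over all genes; none passed the adjustment over all genes. DER2.1 was at 63.96, 58.6 and 77.2 on the ground and 59.9, 60.95 and 61.7 after flight (-0.12, SE 0.13).

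In Col-0, 0 of 31 genes were higher and 0 lower (limma; background 0% higher and 0.00532% lower), and none had an unadjusted p under 0.05. BIP1 was at 85.5, 84.4 and 68.8 FPKM on the ground and 77.03, 88.7 and 68.4 after flight, and BIP2 at 72.95, 77.1 and 57.05 on the ground and 72.1, 72.9 and 55.7 after flight; the groups of both overlapped. The median log2 change of the list was 0.00. The values ran from -0.31 (ERO1, SE 0.47) to 0.38 (UTR1, SE 0.24). The Col-0 fit had 6 libraries, so its SEs are not those of the WS and sku5 fit. The authors' deposited tables for Col-0 and for WS at VG hold 0 of the 36 genes.

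More genes of the list were called between the 2 WS ground groups than in any other of the 8 comparisons. WS ground roots at BO held more mRNA than WS ground roots at VG of 21 of the 35 genes and less of 2, with 12 not called (60.0% and 5.71%, beside 16.9% higher and 15.3% lower over all genes). The median log2 difference was 0.80, against 0.04 over all genes. All BO libraries lay above all VG libraries in 22 genes and below them in 2, beside 26.5% above and 23.4% below over all genes. Both BIP genes tested, 5 of 5 cochaperones and ER Hsp90, 4 of 5 lectin chaperones and 7 of 8 enzymes of disulfide formation were higher. Of the ERAD parts 1 was higher and 1 lower, of the sensors and factors 1 higher and 1 lower, and of the other targets 1 higher. Vehicle, site, year, age and the conditions in which plates were kept all differ between these groups and cannot be told apart.

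TIN1 differed most. It was at 0.31, 0.84 and 0.41 FPKM in WS ground roots at VG and 14.9, 9.21 and 12.4 at BO (3.11, SE 0.36, limma adjusted p = 8.16e-06). SHD was at 82.7, 84.5 and 62.2 at VG and 258, 185 and 208 at BO (1.49, SE 0.20, adjusted p = 2.98e-05). P58IPK was at 10.2, 9.86 and 7.84 at VG and 31.04, 24.6 and 25.5 at BO (1.44, SE 0.20, adjusted p = 4.02e-05). These 3 are among the 22 without overlap, and the BO mean was 2.84 times the VG mean for SHD and 2.90 times for P58IPK.

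PDIL1-2 was at 13.6, 20.3 and 12.1 FPKM at VG and 58.3, 42.1 and 48.2 at BO (1.65, SE 0.25, limma adjusted p = 9.01e-05). SDF2 was at 45.4, 48.8 and 31.04 at VG and 108, 70.6 and 98.6 at BO (1.13, SE 0.18, adjusted p = 0.000193). CNX1 was at 84.8, 97.9 and 64.97 at VG and 265, 167 and 208 at BO (1.35, SE 0.23, adjusted p = 0.000262). The groups of these 3 did not overlap.

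PDIL2-1 (AT2G47470) was at 106, 103 and 100.4 FPKM at VG and 215, 156 and 186 at BO (0.83, SE 0.15, limma adjusted p = 0.000434). BIP1 was at 84.1, 94.8 and 72.8 at VG and 266, 176 and 204 at BO (1.33, SE 0.24, adjusted p = 0.000475). PDIL1-1 (AT1G21750) was at 66.5, 61.7 and 64.8 at VG and 182, 129.7 and 132 at BO (1.17, SE 0.21, adjusted p = 0.000481). None of these groups overlapped. CRT1a was at 118, 121 and 87.4 at VG and 324, 219 and 242 at BO (1.25, SE 0.23) and CRT1b at 88.2, 75.2 and 70.2 at VG and 209, 137 and 156 at BO (1.08, SE 0.20). BIP2 (1.32, SE 0.30) was called higher as well, whereas CRT3 (0.14, SE 0.18) and ERO2 (0.40, SE 0.21) were the lectin and the oxidase that were not. ERO1 (0.96, adjusted p = 0.0494) was called by a narrow margin, with overlapping groups, and lost its call in 11 of 13 other fits.

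bZIP60 (AT1G42990), the transcription factor whose mRNA IRE1 splices, was lower at BO. It was at 90.3, 83.3 and 82.2 FPKM in WS ground roots at VG and at 37.2, 34.9 and 37.7 at BO (-1.20, SE 0.17, limma adjusted p = 4.95e-05). DER2.1 was the other lower gene, with 63.96, 58.6 and 77.2 at VG and 34.2, 46.7 and 45.2 at BO (-0.66, SE 0.13, adjusted p = 0.00115). The groups of neither gene overlapped. These values are levels of a gene as a whole, and spliced and unspliced forms of bZIP60 are not separated in them.

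**Figure D3:**
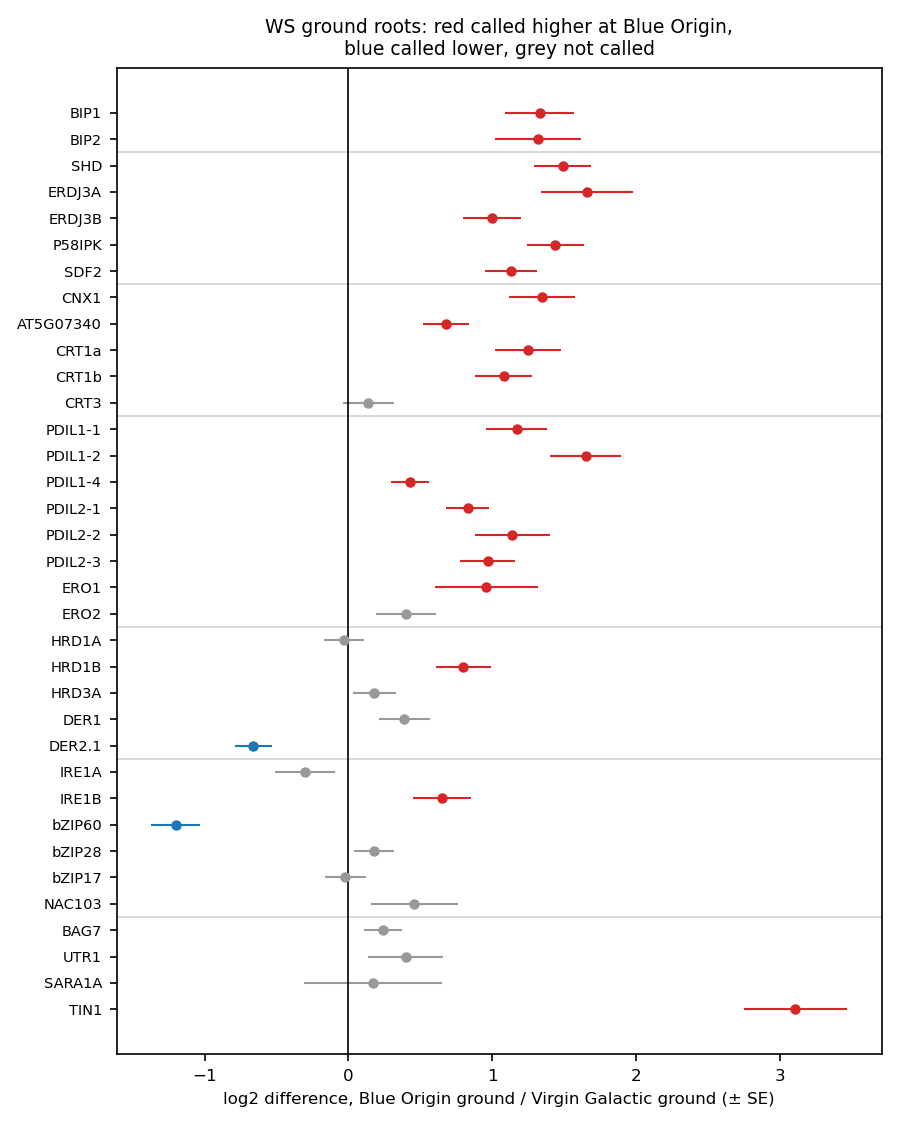
Log2 difference of WS ground roots at Blue Origin over those at Virgin Galactic (x axis, points, bars are ± SE from limma) for the 35 genes tested, grouped by role; red was called higher at Blue Origin, blue lower and grey not called. The 21 red genes include TIN1 at 3.11, and the blue genes are bZIP60 and DER2.1.

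All 7 genes that fell in WS after the Blue Origin flight are among the 21 that were higher at BO than at VG on the ground. The share of all genes called in both of these ways was not counted. The 2 comparisons share the 3 BO ground libraries, and a high value in these lowers the first and raises the second. The overlap is therefore not a separate result, and the levels are given side by side. In order of VG ground, VG flight, BO ground and BO flight, the WS means were 83.9 ± 11, 113 ± 13.4, 215 ± 46 and 111 ± 6.8 FPKM for BIP1. For CNX1 they were 82.5 ± 16.6, 108 ± 21.2, 213 ± 49.4 and 115 ± 11.2. For DER2.1 they were 66.6 ± 9.57, 60.9 ± 0.87, 42.02 ± 6.82 and 84.5 ± 1.74. The BO ground group stood apart from the other WS groups in each of these genes, and the flight groups of BIP1 differed by less than the SD of the VG flight group. DER2.1 in BO flight roots (82.5 to 85.6) also lay above all WS libraries at VG (at most 77.2). SHD was at 122 to 148 in BO flight roots and 101 to 118 in VG flight roots. TIN1 was at 2.01 to 6.92 and 0.37 to 1.36 there. In the other genes that fell, the libraries of the 2 flight groups overlapped.

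The flight effect in WS also differed between the vehicles. As an interaction, 9 of 35 genes had a lower change at BO than at VG and 1 a higher, with 25 not called (25.7% and 2.86%, beside 3.20% lower and 3.63% higher over all genes; with the trimmed-mean factor 6 and 1, and 492 and 944 over all genes). The genes lower were BIP1, SHD, P58IPK, SDF2, CNX1, CRT1a (AT1G56340), PDIL1-2, PDIL2-1 and PDIL2-3. The difference in log2 change was -1.45 (SE 0.35, limma adjusted p = 0.0215) for PDIL1-2, -1.35 (SE 0.34, adjusted p = 0.0256) for BIP1 and -1.18 (SE 0.28, adjusted p = 0.0205) for P58IPK. DER2.1 had the higher change (1.12, SE 0.18, adjusted p = 0.00347). P58IPK, CRT1a and PDIL2-1 were called here although none of them was called in either flight by itself. P58IPK stood at 18.02, 15.8 and 19.3 FPKM and PDIL2-1 at 135, 137 and 129.7 in WS flight roots at BO, and PDIL2-1 at 128, 144 and 116 in those at VG. The median difference was -0.77, against -0.07 over all genes.

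This interaction too rests on single libraries. Without BO ground replicate 1, or without VG ground replicate 3, DER2.1 was the gene still called, and without BO flight replicate 3 or VG flight replicate 2 DER2.1 and P58IPK were. Without BO flight replicate 1 the count was 6, and without BO ground replicate 3 or VG ground replicate 1 it was 5. The signs of the 10 genes were the same in all fits tried. For BIP1 the difference ran from -1.49 to -1.19 over them, with limma adjusted p from 0.00632 to 0.0841. For DER2.1 it ran from 0.98 to 1.21, with adjusted p from 0.00251 to 0.0138.

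No sensor or transcription factor was called after either flight. IRE1A (AT2G17520) was at 23.1, 30.2 and 26.5 FPKM in WS ground roots at BO and 34.03, 30.2 and 33.6 after flight (0.29, SE 0.21, limma adjusted p = 0.422). IRE1B (AT5G24360), its paralog, was at 10.2, 11.6 and 7.93 on the ground and 7.73, 8.69 and 7.57 after flight (-0.27, SE 0.20, adjusted p = 0.437). bZIP60 was at 37.2, 34.9 and 37.7 on the ground and 40.9, 44.5 and 43.01 after flight (0.22, SE 0.17, adjusted p = 0.444), with the flight libraries all above the ground libraries.

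The membrane-bound factor bZIP28 (AT3G10800) was at 21.4, 23.5 and 22.5 FPKM in WS ground roots at BO and 22.8, 26.9 and 22.8 after flight (0.10, SE 0.14). bZIP17 (AT2G40950), known for salt stress, was at 23.2, 17.9 and 19.3 on the ground and 18.1, 20.6 and 15.6 after flight (-0.15, SE 0.14). In sku5 the changes of these 5 genes ran from -0.18 for IRE1B to 0.21 for IRE1A, and none was called. In the VG libraries of WS they ran from -0.33 for IRE1A to 0.17 for IRE1B, and none was called either. NAC103, a target of bZIP60, did not exceed 1.59 FPKM in any library. Between the ground groups of WS, IRE1B was higher at BO (0.65, SE 0.20, adjusted p = 0.0195).

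The share of BIP1 in the BIP pool was also looked at. Its part of the summed FPKM of BIP1 and BIP2 was 47.6%, 50.6% and 49.4% in the 3 WS ground libraries and 41.2%, 43.6% and 41.5% after flight. In sku5 it was 48.5%, 49.5% and 44.8% on the ground and 42.6%, 39.0% and 41.4% after flight. All flight libraries lay below all ground libraries in both lines. At VG the WS shares of 44.1% to 53.2% on the ground and 41.0% to 48.5% after flight overlapped, as did those of Col-0. This share was looked at after the values were seen and is given without a test, and it depends on how reads of the near-identical genes were divided.

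**Figure D4:**
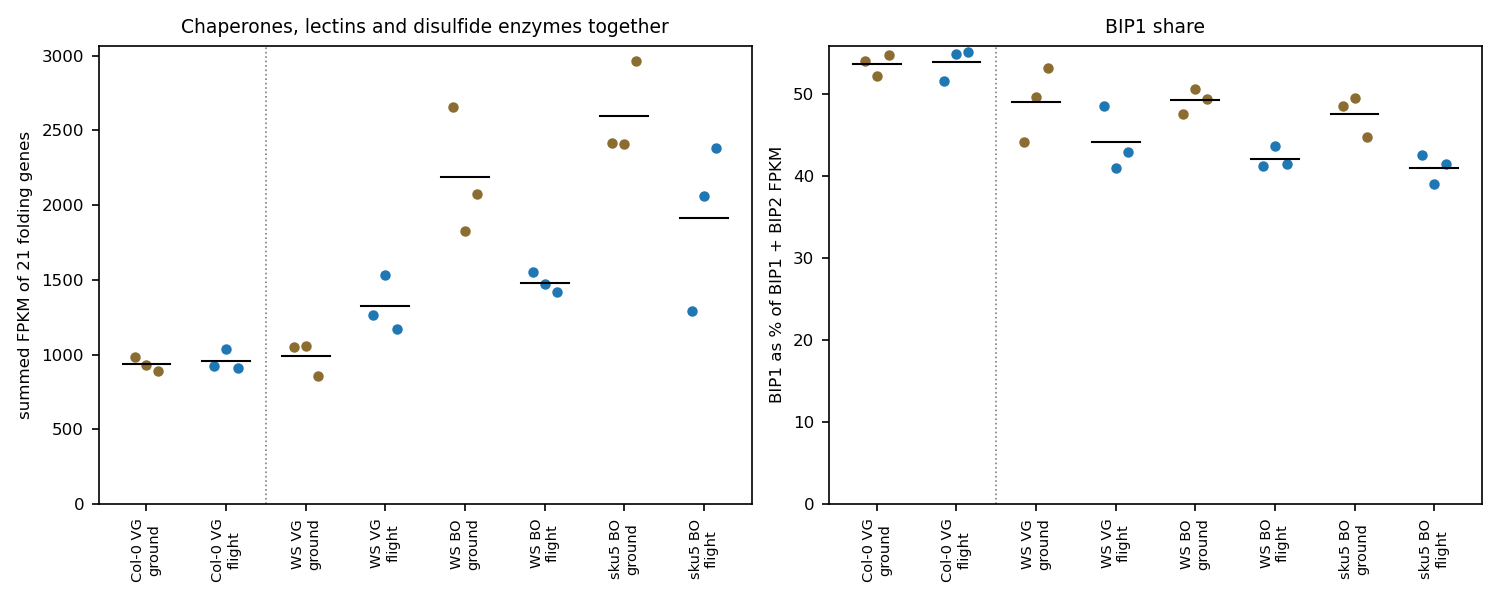
Left, summed FPKM of the 21 folding genes; right, BIP1 as a percentage of BIP1 plus BIP2 FPKM; dots are libraries, black lines group means, brown ground and blue flight, both axes from 0. The folding sum was 1825 to 2658 in WS ground roots and 1421 to 1552 in flight roots at Blue Origin, and the BIP1 share was at most 43.6% in the Blue Origin flight libraries.

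Among the ERAD ubiquitin ligases, HRD1B (AT1G65040) was at 27.3, 20.9 and 31.9 FPKM in Col-0 ground roots and 5.61, 5.12 and 4.08 in WS ground roots of the same flight. Across all libraries it was 18.95 to 33.9 FPKM in Col-0 and 4.08 to 12.3 in WS and sku5, with no overlap. The tables were normalized separately and no test was made between them. The share of all genes without overlap between the tables was not counted. Its paralog HRD1A, whose coding sequence is 79.4% identical, was at 10.07, 7.65 and 8.91 in Col-0 and 13.7, 12.98 and 13.6 in WS. Across all libraries HRD1A (7.65 to 10.07 FPKM in Col-0, 11.15 to 17.46 in WS and sku5) did not overlap between the tables either. Nor did AT5G07340 (at most 20.87 in Col-0, at least 22.58 in WS and sku5) and BAG7 (at most 145.05 and at least 154.01). These genes were lower in Col-0, so a lack of overlap is not particular to HRD1B.

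Of the 36 genes 13 were called in none of the 8 comparisons: BIP3, which could not be tested, CRT3, ERO2, HRD1A, HRD3A, DER1, IRE1A, bZIP28, bZIP17, NAC103, BAG7, UTR1 and SARA1A. NAC103 and SARA1A were low throughout, SARA1A at no more than 4.43 FPKM. BIP2, ERDJ3A (at most 5.91 FPKM in any library), ERDJ3B, the calnexin AT5G07340, CRT1b, PDIL1-1, PDIL1-4, PDIL2-2, HRD1B, IRE1B and bZIP60 were called between the WS ground groups and in no other comparison.

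Motif content was set beside the calls as a description. Of the 7 genes that fell in WS after the Blue Origin flight, 3 (SHD, PDIL1-2 and TIN1) hold an ERSE or UPRE-I in the window, and of the 27 not called 5 do. Of the 21 genes higher at BO on the ground 7 do, of the 2 lower 0, and of the 12 not called 1. BIP1, BIP2, CNX1 and PDIL2-3 were among the genes that moved and hold neither ERSE nor UPRE-I within 250 bases.

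Other genes of the ER pathway were counted from 5 lists of 57 genes, of which 55 could be tested. After the Blue Origin flight 4 were higher and 1 lower in WS (7.27% and 1.82%, beside 5.51% and 6.15% of all genes), and 2 higher and 3 lower in sku5 (3.64% and 5.45%, beside 5.05% and 5.25%), so these shares are near the background or below it. After the Virgin Galactic flight 0 were called in WS or Col-0. NAC089, a membrane-bound factor of the ER stress response, rose in WS from 7.61 ± 0.857 to 17.15 ± 1.65 FPKM (1.08, SE 0.23, limma adjusted p = 0.00712) and in sku5 (0.82, SE 0.23, adjusted p = 0.0335). CDC48A, the ATPase that pulls ERAD substrates from the membrane, rose in WS (0.38, SE 0.10) and in sku5 (0.35, SE 0.10), and UBC32, an ERAD ubiquitin-conjugating enzyme, rose in WS (0.51, SE 0.15). The lower gene in WS was HSP70-17 (-0.56, SE 0.17), which also fell in sku5 (-0.61, SE 0.17) together with PDIL5-1 (-0.57) and PDIL1-6 (-0.54). The remaining call in WS was SEC13A of the COPII coat (0.37, SE 0.11).

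Between the WS ground groups 23 of the 55 genes were higher at BO and 4 lower (41.8% and 7.27%, beside 16.9% and 15.3% of all genes). They include 10 of 20 genes of translocation and other folding, such as HSP70-17 (0.96, SE 0.17) and PDIL1-6 (0.85, SE 0.17), and 9 of 13 of N-glycosylation and glycan trimming, such as EBS1, the glucosyltransferase of the calnexin cycle (0.88, SE 0.18). Of the COPII coat 3 of 7 were higher, SEC31B by 0.92 (SE 0.13), and of other ERAD genes HRD3B (0.82, SE 0.28). The 4 lower were DER2.2 (-1.02, SE 0.18) and UBC32 (-0.43, SE 0.15) of ERAD and the factors NAC062 (-0.99, SE 0.16) and NAC089 (-1.39, SE 0.23). In the interaction of WS flight effects 3 were lower at BO (SAR1B, FKBP15-2 and a SEC61 gamma subunit) and 1 higher (UBC32), that is 5.45% and 1.82%, beside 3.20% and 3.63% of all genes.

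Markers of tissues moved in some of the same comparisons. After the Blue Origin flight in WS the phloem transporter SUC2 (1.09, SE 0.26) and the epidermal factor GL2 (0.72, SE 0.22) were higher, 1 of 3 phloem and 1 of 5 root hair and epidermis genes, and 0 of 5 genes of dividing cells were called. The summed level of the latter was 124 to 170.0 FPKM on the ground and 93.2 to 132 after flight. The median log2 change was 0.47 over the phloem genes but -0.11 over the root hair and epidermis genes. The root hair and epidermis genes summed to 78.4 to 92.0 FPKM on the ground and 66.5 to 81.8 after flight, so GL2 does not stand for its list. In sku5 SUC2 (1.48, SE 0.26) and 1 of 9 shoot genes, LHCB1.3 (1.29, SE 0.27), were higher. The median over the 9 shoot genes in sku5 was -0.34, although their sum was 331 to 509 FPKM on the ground and 539 to 725 after flight. Between the WS ground groups 4 of 4 endodermis, 3 of 5 root hair and epidermis, 2 of 5 dividing-cell and 5 of 9 shoot genes were higher at BO; SUC2 (-0.88, SE 0.26) and the stele regulator SHR (-0.80, SE 0.17) were lower and the phloem gene SEOR1 (0.74, SE 0.26) higher. SUC2 also had a higher flight effect at BO than at VG (1.62, SE 0.37). The shoot sum was 102 to 145 FPKM at VG and 354 to 579 at BO, and the endodermis sum 78.9 to 151 and 178 to 285. The part of these shifts in the ER genes' values was not tested.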

How the data were processed

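Poly(A) RNA of whole roots was measured in 24 libraries. Per the submitters' processing notes, Trimmomatic 0.36, FastQC 0.11.4, MultiQC 1.1, STAR 2.7.3a, RSEM 1.2.31 and DESeq2 were used; the genome build is not given in the sources used here. The authors deposited FPKM values in 2 tables (Col-0; WS and sku5), and that the unit is FPKM was read from the values. Per the file headers, deposited lists of genes changed by flight give a log2 fold change, a p-value and, as scores, its standard error and a mean normalized count; these were quoted, not refitted.

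From the FPKM values, genes at 1 FPKM or more in 3 libraries were fitted on log2(FPKM + 1) with limma 3.58.1 with a mean-variance trend (R 4.3.3), Col-0 in 6 libraries and WS with sku5 in 18, in 8 two-sided comparisons adjusted over all genes. Fits were tested on simulated data. Replicate numbers did not pair libraries (correlations of deviations from -0.159 to 0.143 for equal numbers), so no block was used. Promoters came from RefSeq TAIR10.1, with a window of 250 bases set here. The genes and lists were chosen with earlier results of these data known. Values are given in every library for the BIP genes, the sensors and bZIP factors, and up to 12 called genes per comparison by smallest p. Alternatives tried were another pseudocount, other filters, 2 other scalings, no trend, a replicate block, fits of the compared libraries alone, and leaving out each library.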

Additional observations from a re-analysis of the deposited data

Results flagged for a closer look

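The WS flight effect differed between vehicles for 10 of the 35 genes, by the interaction of flight and vehicle in limma. It was lower at Blue Origin for 25.7% of the genes and higher for 2.86%, beside 3.20% and 3.63% over all genes tested. The log2 change at Blue Origin minus that at Virgin Galactic was -1.35 for BIP1, -1.12 for SHD, -1.18 for P58IPK, -1.05 for SDF2, -1.25 for CNX1, -1.17 for CRT1a, -1.45 for PDIL1-2, -0.78 for PDIL2-1 and -0.93 for PDIL2-3. For DER2.1 it was 1.12. These are the genes whose difference passed an adjusted p of 0.05 over all genes. They are not equally firm: CRT1a, PDIL2-1 and PDIL2-3 lost their call in 12, 11 and 13 of 20 other fits. Without BO ground replicate 1, or without VG ground replicate 3, DER2.1 was the gene still called. The 3 libraries of a group are too few for a test of single outlying libraries, and none was made.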

How the results depend on the processing

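Fitting the compared libraries alone called 13 genes in WS at BO (8 in the main fit) and 3 in sku5 at BO (6), and the trimmed-mean factor called 3 in sku5. Leaving out each library gave 1 to 10 called genes for WS at BO, 2 to 10 for sku5 at BO, 20 to 23 between the WS ground groups and 1 to 12 for the WS interaction, and 0 to 0 for Col-0 and WS at VG, for sku5 against WS on the ground and for the sku5 interaction. With the replicate block the counts were 7 in WS at BO, 6 in sku5, 8 in the WS interaction and 0 in the other comparisons; it dropped SHD and PDIL2-3 and added CRT1a in WS, exchanged ERO1 for ERDJ3A in sku5, and dropped PDIL2-1 and PDIL2-3 from the interaction; between the vehicles no paired analysis was possible because the block lies within a vehicle. Over all alternatives 547 values of called genes kept their call and 147 lost it, and 0 changed sign. These counts pool the comparisons. The WS ground comparison gave the most kept calls, and most of the lost ones were in the Blue Origin flight comparisons and the WS interaction. DER2.1 kept its call in all alternatives, and TIN1 in sku5 did as well. Read totals are unknown, so low genes such as BIP3, NAC103 and SARA1A have unknown counting error.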
